A study of Andrographis paniculata with 12 samples.

Results

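The 5 assembled genes described here carry the names of geranylgeranyl diphosphate synthase, of its small subunit and of a farnesyl diphosphate synthase in leaves of Andrographis paniculata, a medicinal herb that makes the diterpene lactone andrographolide. They were taken by their gene IDs from a table of 32064 assembled genes. An assembled gene is 1 cluster of assembled transcripts, and several clusters may belong to a single gene of the plant. The leaves had been treated with methyl jasmonate (MeJA), the volatile ester of the wound hormone jasmonic acid, and were sampled at 0, 12, 24 and 48 h, with 3 biological replicates labelled at each time. The labels give no genotype, plant age or dose, and no leaves without MeJA at 12, 24 or 48 h were analysed here. Time of treatment and leaf age therefore cannot be told apart in any difference from 0 h. If the hours ran from 1 start, 24 and 48 h share the time of day of 0 h and 12 h does not. Time of day is then a further part that cannot be told apart in the difference at 12 h.

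The table holds 1 expression level per gene and time, which the authors had averaged over the replicates. No SD and no p-value can be had from it, and the read depth behind a level is unknown. The counts below use a rule of size: a gene counts as higher or lower than at an earlier time once its log2(level + 1) is at least 1 apart, that is 2-fold. They run over the 29399 genes that reach a level of 1 at some time. These counts describe the deposited means and do not say which differences exceed the variation between plants. The leaf label was checked against 3 Rubisco small chain genes, 7 Rubisco activase genes and 28 genes named chlorophyll a-b binding protein. Their summed shares of the column were 2.28%, 0.997% and 4.18% at 0 h, 0.281%, 0.00586% and 0.104% at 12 h, 0.673%, 0.664% and 0.600% at 24 h, and 0.869%, 0.940% and 0.691% at 48 h. These leaf markers were thus lowest at 12 h, where 4 of the 5 genes described here had their highest level, and their part in the results was not tested.

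Prenyl diphosphate synthases join isopentenyl and allylic diphosphates into longer chains. Geranylgeranyl diphosphate (GGPP), made in plastids, is the precursor of diterpenes, carotenoids, gibberellins and the side chain of chlorophyll. The small subunit has lost catalytic activity of its own. In Arabidopsis it binds a plastid GGPP synthase and shifts its product towards geranyl diphosphate, the precursor of monoterpenes. Farnesyl diphosphate (FPP), made mainly in the cytosol, leads to sesquiterpenes, sterols and triterpenes.

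The names rest on best database hits and state similarity. The GGPP synthase TR18674|c2_g3 had its best Swiss-Prot hit in pepper (GGPPS_CAPAN), and its neighbour TR18674|c2_g1 in the rubber tree (GGPPS_HEVBR). Both small subunit genes, TR65835|c2_g2 and TR65835|c2_g1, hit the Arabidopsis entry GGR_ARATH. The best TrEMBL hit of TR65835|c2_g2, from Salvia miltiorrhiza, is named a geranyl diphosphate synthase small subunit. For this gene both databases thus name a small subunit, and the names differ in the product they give. The best TrEMBL hit of TR65835|c2_g1 is an uncharacterised protein. The FPP synthase TR40024|c0_g1 hit a white lupin entry (FPPS2_LUPAL). The table gives a predicted protein with the Pfam polyprenyl synthetase domain for 4 of the 5 genes and none for TR18674|c2_g1. Members whose IDs differ only in the last digit come from 1 assembly component and can be pieces or copies of 1 gene, between which reads may have been split.

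The 5 genes were at their highest after treatment began, 4 of them at 12 h and 1 at 24 h, and they differed in how they went on from there. At 12 h against 0 h, 4 of 5 were higher by 2-fold or more and none was lower, where 15% of all genes were higher and 17.7% lower. At 24 h against 0 h, 4 were higher and 1 was lower, with 13.4% of all genes higher and 16.9% lower. At 48 h against 0 h the same 4 were higher and the same 1 lower, with 12.2% and 19.6% of all genes. Among the 13920 genes that reach a level of 10, as each of the 5 does, 18.1% were higher at 12 h, 17.5% at 24 h and 15.7% at 48 h. The median log2 difference of the 5 genes was 3.10, 2.95 and 1.75 at 12, 24 and 48 h, against 0.06, 0.01 and -0.09 over all genes. The 5 genes were put together with earlier results of these data known, so these counts describe them and do not set them apart from other enzymes.

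**Figure D1:**
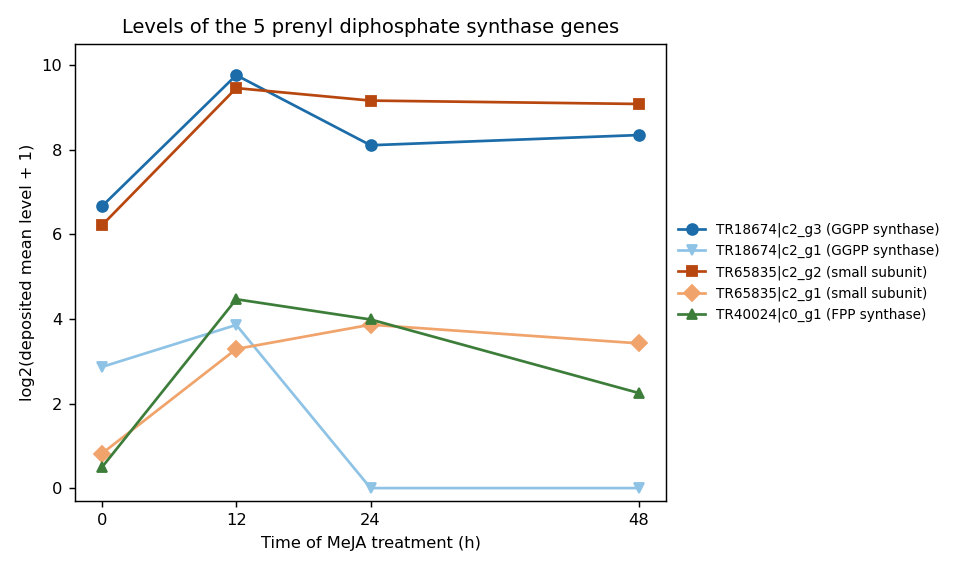
Deposited mean level of each of the 5 genes, as log2(level + 1), against hours of MeJA treatment. Points are the authors' means over 3 replicates, with no error available. The GGPP synthase TR18674|c2_g3 was lower at 24 h than at 12 h, the small subunit TR65835|c2_g2 stayed within 2-fold of its 12 h level, and TR18674|c2_g1 was listed at 0 from 24 h.

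The GGPP synthase hit TR18674|c2_g3 had levels of 100.4 (0 h), 868 (12 h), 274 (24 h) and 325 (48 h). The 12 h level stands above the other 3, and both later levels lie between it and the level at 0 h. It was 8.65-fold higher at 12 h than at 0 h, 2.73-fold at 24 h and 3.23-fold at 48 h. On the log2(level + 1) scale these differences were 3.10, 1.44 and 1.68. Among all levels of each column, this gene ranked 1222 (0 h), 87 (12 h), 430 (24 h) and 295 (48 h). At 24 h its level was 31.6% of the 12 h value, a log2 difference of -1.66. Of all genes, 11.1% were lower by 2-fold or more in that step, and of the 4413 genes higher at 12 h, 34.1% were. From 24 to 48 h it differed by 0.24, under 2-fold.

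Its neighbour TR18674|c2_g1 had levels of 6.29 (0 h) and 13.5 (12 h), and the table lists it at 0 for both 24 and 48 h. The difference at 12 h was 0.99 on the log2(level + 1) scale, just under the size rule, while the deposited levels themselves differ by 2.15-fold. With a pseudocount of 0.1 the difference was 1.09 and the gene is counted as higher. Of the 15379 genes whose level at 0 h was 5 or more, 82 genes or 0.533% were listed at 0 at both 24 and 48 h. No fold is given for those times. The summed level of the 2 pieces of this component, 107, 881, 274 and 325, follows TR18674|c2_g3, and with the pieces summed no member is counted as lower at 24 or 48 h. The pieces were lowest at different times, TR18674|c2_g3 at 0 h and TR18674|c2_g1 at 24 and 48 h.

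The small subunit TR65835|c2_g2 had levels of 73.2 (0 h), 702 (12 h), 572 (24 h) and 541 (48 h). All 3 later levels lie well above the level at 0 h and close to each other. The folds over 0 h were 9.59 (12 h), 7.81 (24 h) and 7.39 (48 h), with log2 differences of 3.24, 2.95 and 2.87. It kept 81.4% of its 12 h level at 24 h and 77.1% at 48 h. Of the genes higher at 12 h, 53% were also counted as higher at 24 h against 0 h and 46.2% at 48 h against 0 h. At 48 h, 577 of all genes had a larger difference from 0 h than this one, and its rank by level within the column was 152, from 1715 at 0 h.

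The other small subunit gene, of lower level, TR65835|c2_g1 had levels of 0.763 (0 h), 8.77 (12 h), 13.6 (24 h) and 9.72 (48 h). It was the only 1 of the 5 genes with its highest level at 24 h. Its log2 differences from 0 h were 2.47, 3.05 and 2.60. The differences between its 3 later levels were all under 2-fold. Relative to 0 h it differed from TR65835|c2_g2 by -0.77 at 12 h, 0.10 at 24 h and -0.26 at 48 h on the log2(level + 1) scale, where the low level of TR65835|c2_g1 at 0 h makes its differences understated. The deposited folds over 0 h were 11.5, 17.8 and 12.7.

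The small subunit TR65835|c2_g2 and the GGPP synthase TR18674|c2_g3 moved by similar amounts at 12 h and by different amounts later. The log2 difference from 0 h of TR65835|c2_g2 less that of TR18674|c2_g3 was 0.14 at 12 h, 1.51 at 24 h and 1.18 at 48 h. The ratio of the small subunit's level to the synthase's level was 0.730 (0 h), 0.809 (12 h), 2.08 (24 h) and 1.67 (48 h). These ratios compare times only, since whether the levels are per transcript length is not given in the sources used here. They use this synthase gene alone and not all genes of its name. TR79634|c0_g1, also named GGPP synthase, is left out of them and was at 57.1 (0 h), 70.5 (12 h), 233 (24 h) and 229.7 (48 h). Without replicate values the gap between the genes could not be tested.

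The FPP synthase TR40024|c0_g1 had levels of 0.407 (0 h), 21.1 (12 h), 14.9 (24 h) and 3.74 (48 h). It went from near 0 to its highest level at 12 h, and its largest step down was the last. Its log2 differences from 0 h of 3.97 (12 h), 3.49 (24 h) and 1.75 (48 h) include the largest of the 5 genes at 12 and 24 h. The deposited levels were 51.8-fold, 36.5-fold and 9.19-fold higher, but the level at 0 h is so low that these folds are uncertain. At 12 h, 377 genes had a larger log2 difference. From 24 to 48 h it differed by -1.74, the only member counted as lower in that step, where 4.5% of all genes were lower and 256 had a more negative difference. At 48 h it was at 17.8% of its 12 h level.

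**Figure D2:**
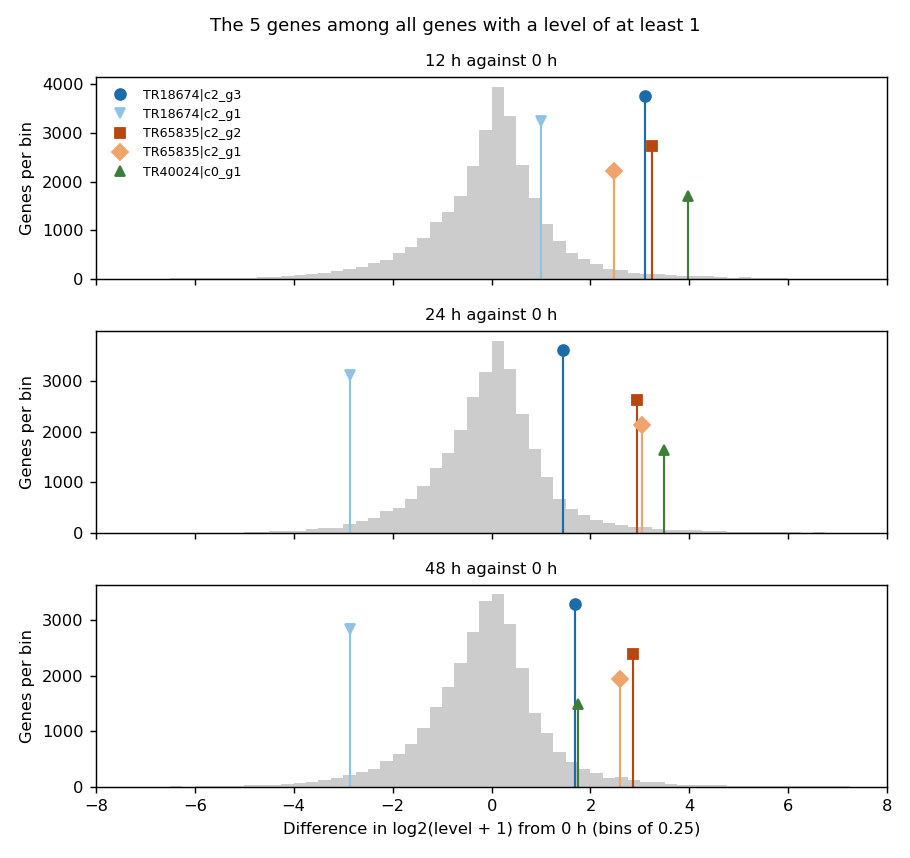
Number of genes (grey bars, bins of 0.25) by their difference in log2(level + 1) from 0 h at 12, 24 and 48 h, over genes that reach a level of 1, drawn between -8 and 8. Coloured lines with markers show the 5 genes. At each time 4 of the 5 lie beyond 1 on the right, and TR18674|c2_g1 lies at 0.99 at 12 h and on the left at the other 2 times.

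In the steps between treated times, 2 members were lower from 12 to 24 h, both GGPP synthase pieces of 1 component, and none was higher, against 11.1% and 10.6% of all genes. From 24 to 48 h 1 member was lower and none higher, against 4.5% and 2.36% of all genes. The small subunit TR65835|c2_g2 differed by -0.30 and -0.08 in the steps from 12 to 24 h and from 24 to 48 h, and the last value was 0.05 with median-of-ratios scaling.

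The table holds 11 further genes named GGPP or FPP synthase. Of the 10 that reach a level of 1, 2 were higher and 2 lower at 12 h, where 15% and 17.7% of all genes were. At 24 h 3 were higher and 2 lower, beside 13.4% and 16.9%, and at 48 h 4 and 3, beside 12.2% and 19.6%. Of the 4 among them named GGPP synthase, none was counted as higher and 2 as lower at 12 h, too few genes to set beside the shares of all genes. The low TR64581|c0_g1 came short of the rule at 0.89, while its deposited levels of 0.732 (0 h) and 2.21 (12 h) differ by 3.02-fold. The most abundant of the other genes named GGPP synthase, TR79634|c0_g1, had levels of 57.1 (0 h), 70.5 (12 h), 233 (24 h) and 229.7 (48 h). Its level at 12 h was close to that at 0 h and its 24 and 48 h levels were alike and higher, with log2 differences of 0.30, 2.01 and 1.99. At 24 h it was thus higher over 0 h than the member TR18674|c2_g3 (1.44), and at 12 h much less so than that gene (3.10). The GGPP synthase hit TR77600|c0_g1 had a level of 10.4 at 0 h and of 0.814, 1.83 and 2.06 later, lower at all 3 times. TR58526|c0_g1, at 18.7, 7.05, 10.96 and 14.6, was lower at 12 h alone. These genes other than TR79634|c0_g1 were chosen after their values were seen.

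Among the FPP synthase names, TR40024|c0_g2, from the same component as the member TR40024|c0_g1, had levels of 0.124 (0 h), 6.66 (12 h), 1.48 (24 h) and 1.42 (48 h). Like the member it had its highest level at 12 h, and unlike it, it was already lower by 2-fold at 24 h than at 12 h, with a log2 difference of -1.63 against -0.48. The FPP synthase TR34983|c0_g2 was at 18.1, 43.6, 76.4 and 76.7 and was higher at each later time. TR66694|c1_g2, at 56.9, 64.2, 46.6 and 43.7, stayed within 2-fold throughout and was the gene of this name with the highest level at 0 h. At 12 h the member's level of 21.1 stood beside 64.2 and 43.6 for these 2 genes, on a scale whose length correction is not given. These 3 genes were also chosen after their values were seen.

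**Figure D3:**
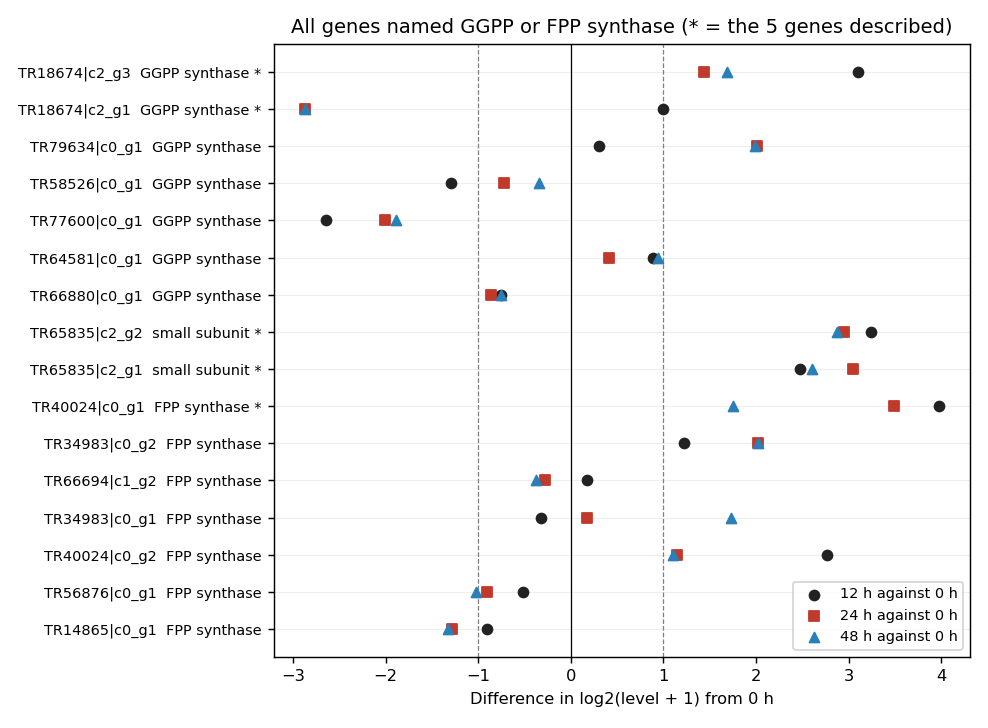
Difference in log2(level + 1) from 0 h at 12 h (circles), 24 h (squares) and 48 h (triangles) for all 16 genes named GGPP synthase, its small subunit or FPP synthase, with stars on the 5 described here. Dashed lines mark 2-fold. The starred genes other than TR18674|c2_g1 lie right of the 2-fold line at all 3 times, while genes of the same names lie on both sides.

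The enzymes before and after these synthases give the setting of the members. Precursor supply, the enzymes of the plastid methylerythritol phosphate route, the cytosolic mevalonate route and isopentenyl diphosphate isomerase, had 18 of 36 genes higher and 2 lower at 12 h, 14 and 1 at 24 h, and 15 and 2 at 48 h. The median log2 differences were 1.01, 0.88 and 0.85. At 12 h the median was 1.62 with a pseudocount of 0.1 or a level of at least 10, and 0.89 with equal column sums. Of the list as deposited, 50%, 38.9% and 41.7% were higher at 12, 24 and 48 h, beside 15%, 13.4% and 12.2% of all genes. Lower were 5.56%, 2.78% and 5.56%, beside 17.7%, 16.9% and 19.6%. As in the other lists, some genes here come from 1 assembly component and may be pieces of 1 gene, among them hydroxymethylbutenyl diphosphate synthase genes. HMG-CoA reductase, the control step of the mevalonate route, had 4 of 6 genes higher at 12 h, 2 at 24 h and 4 at 48 h, and none lower. These are too few genes to set beside the shares of all genes. TR59188|c3_g3 of that name, picked for its large difference, was at 6.41, 198, 63.6 and 18.4 over the 4 times. As with the FPP synthase TR40024|c0_g1, its highest level was at 12 h and each later level was below the one before. The reductoisomerase DXR (TR50722|c0_g4) of the plastid route was at 40.3, 407, 166 and 164, and like the GGPP synthase TR18674|c2_g3 it was lower by 2-fold or more at 24 h than at 12 h. Hydroxymethylbutenyl diphosphate reductase, the last step of that route, had 2 genes, which went opposite ways at 12 h. TR51094|c2_g1 was at 327, 1327, 1472 and 1558. TR64335|c4_g1, named after its values were seen, was at 213, 37.3, 674 and 848, lower at 12 h and higher at 24 and 48 h against 0 h.

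Enzymes that use GGPP had 3 of 20 genes higher and 6 lower at 12 h, 4 and 4 at 24 h, and 3 and 4 at 48 h, with medians of 0.07, 0.09 and 0.19. At 12 h, 1 gene was higher with either scaling of the columns, and the median was -0.08 with equal column sums and -0.04 with median-of-ratios scaling. Without scaling, 15%, 20% and 15% of the list were higher at 12, 24 and 48 h, beside 15%, 13.4% and 12.2% of all genes. Lower were 30%, 20% and 20%, beside 17.7%, 16.9% and 19.6%. This list also holds homogentisate prenyltransferases, which use related prenyl diphosphates. The ent-copalyl diphosphate synthase TR66725|c19_g3, which cyclises GGPP on the way to labdane-type diterpenes and gibberellins, was at 359, 834, 3374 and 4348. Its level at 24 h exceeded that at 12 h by 2.01 on the log2 scale, in the step where the GGPP synthase TR18674|c2_g3 differed by -1.66 and TR79634|c0_g1 by 1.71. Geranylgeranyl diphosphate reductase (TR76497|c0_g1), which makes the phytyl chain of chlorophyll, was at 162.6, 1.75, 19.9 and 29.2. Phytoene synthase (TR48650|c0_g2), the entry to carotenoids, was at 30.9, 0.555, 34.98 and 24.99. Both were lowest at 12 h, the time at which TR18674|c2_g3 was highest.

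Enzymes that use FPP had 8 of 25 genes higher and 3 lower at 12 h, 13 and 2 at 24 h, and 13 and 4 at 48 h, with medians of 0.17, 1.09 and 1.01. The last 2 were 1.60 and 1.64 with a pseudocount of 0.1. Of the list, 32%, 52% and 52% were higher at 12, 24 and 48 h, beside 15%, 13.4% and 12.2% of all genes. Lower were 12%, 8% and 16%, beside 17.7%, 16.9% and 19.6%. The users of FPP with sesquiterpene synthase names gave 7 of 14 higher and none lower at 12 h, and 10 and none at both 24 and 48 h. Squalene synthase, which leads to sterols, had none of 3 genes higher at these times and 1, 1 and 2 lower at 12, 24 and 48 h, too few genes to set beside the shares of all genes. The lower counts came from TR16397|c0_g1 and TR34518|c0_g1, with levels of 4.12 and 2.82 at 0 h. The most abundant of the 3, TR18783|c0_g2, was at 45.8, 31.1, 55.6 and 48.4, under 2-fold from 0 h throughout. These 3 genes were named after their values were seen. The beta-caryophyllene synthase hit TR48613|c1_g1 was at 0.195, 382, 62.9 and 14.01, with its highest level at 12 h as in the FPP synthase TR40024|c0_g1. The germacrene A synthase hit TR23775|c1_g2 was at 0.0910, 129, 204 and 227, and the nerolidol synthase hit TR24462|c6_g2 at 40.2, 764, 724 and 538.

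The remaining prenyl diphosphate synthases, 22 genes that include the 11 of the same names, had 3 of 21 higher and 8 lower at 12 h, 6 and 5 at 24 h, and 7 and 7 at 48 h. Their medians were -0.52, -0.28 and -0.34, and the first was -1.01 with a level of at least 10. Of the list, 14.3%, 28.6% and 33.3% were higher at 12, 24 and 48 h, beside 15%, 13.4% and 12.2% of all genes. Lower were 38.1%, 23.8% and 33.3%, beside 17.7%, 16.9% and 19.6%. The 4 solanesyl diphosphate synthases, which make the side chain of plastoquinone and ubiquinone, had 3 lower and none higher at 12 h, and 1 lower and none higher at both 24 and 48 h against 0 h. From 12 to 24 h, 2 of them were higher, but 4 genes are too few to set beside the shares of all genes. TR45514|c0_g1 of that name was at 45.9, 9.21, 5.03 and 15.8. The dehydrodolichyl diphosphate synthase 6 hit TR54955|c2_g3 was at 9.95, 0.0500, 36.3 and 83.1. The 6 dehydrodolichyl genes are counted both here and with the users of FPP.

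**Figure D4:**
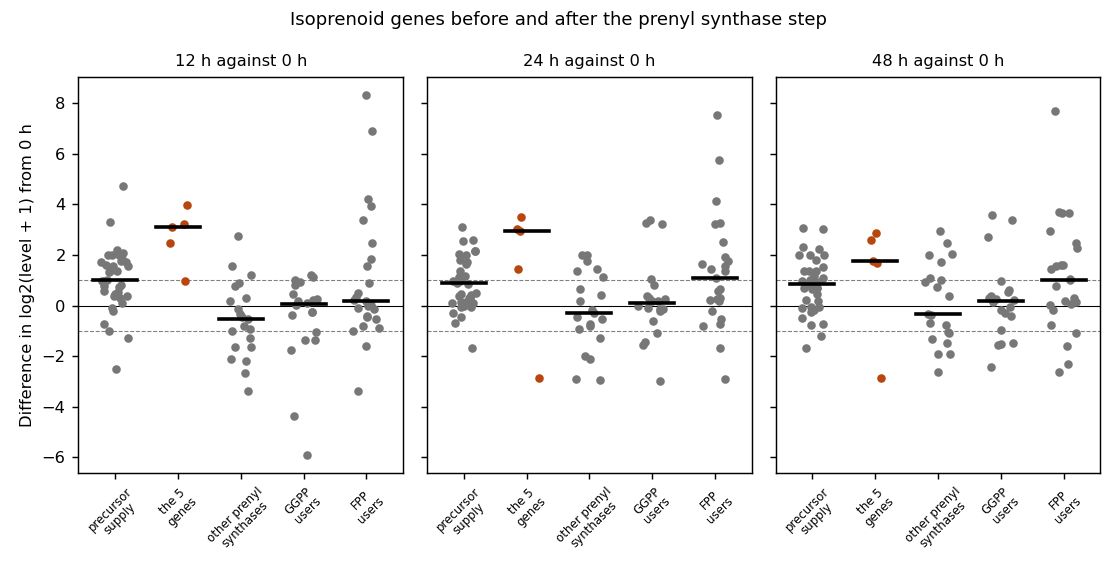
Difference in log2(level + 1) from 0 h for each gene (points) of the precursor supply, the 5 genes, other prenyl diphosphate synthases, and enzymes that use GGPP or FPP. Bars are medians and dashed lines mark 2-fold, over genes that reach a level of 1. The median of the 5 genes is 3.10, 2.95 and 1.75 at 12, 24 and 48 h, and that of the precursor supply 1.01, 0.88 and 0.85.

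The genes most like 3 of the members in their course were found among 10249 annotated genes with a mean level of at least 10, by the root-mean-square distance of their 3 log2 differences from 0 h. Nearest to the GGPP synthase TR18674|c2_g3 was a cysteine proteinase 15A hit (TR79469|c2_g1) at a distance of 0.13, with levels of 88.8, 841, 239 and 254. The next were a gene of an uncharacterised protein (TR15333|c0_g1), a cinnamoyl-CoA reductase hit (TR26008|c0_g1), the transcription factor hit bHLH35 (TR15705|c3_g2) and a putative heat shock protein (TR24973|c1_g3), up to a distance of 0.19. Nearest to the small subunit TR65835|c2_g2 were a vacuolar-sorting receptor hit (TR74678|c1_g1) at 0.10 and a 13-lipoxygenase hit of chloroplasts (TR84117|c0_g1) at 0.12. A receptor-like kinase (TR52433|c0_g1), the hexose carrier HEX6 (TR74446|c1_g3) and a gene with an unnamed Coffea hit (TR16386|c0_g2) followed, up to 0.17. The FPP synthase TR40024|c0_g1 had no gene within 0.25. Its nearest were an uncharacterised protein (TR80684|c4_g2) at 0.30, a thioredoxin TDX hit (TR79951|c4_g4), the homeobox protein HOX27 hit (TR21210|c3_g2), a metal ion binding protein (TR78463|c0_g1) and a glutathione transferase hit (TR74651|c5_g5) at 0.40. Within a distance of 0.5 there were 62 genes for TR18674|c2_g3, 88 for TR65835|c2_g2 and 17 for TR40024|c0_g1. None of the 15 nearest genes carries the name of an isoprenoid enzyme. The share of such names among the 10249 genes was not counted, so this says nothing about the members. The measure rests on 4 means from the same libraries, so it describes likeness over 4 times.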

How the data were processed

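The labels describe 12 leaf samples in 4 groups of 3, sequenced as strand-specific mRNA libraries. Per the file headers, the deposited table gives 1 expression signal per assembled gene and time. The authors had averaged the replicates, as the values show: all lie on a grid of 0.001 divided by 3, to within 0.001 of a grid step. RSEM 1.2.19, Trimmomatic 0.33, FastQC 0.11.3 and CASAVA appear in the submitters' processing notes, with no role stated. Not given in the sources used here are the assembler, the reference and whether the signal is TPM or another unit. Column sums were 866243, 973347, 965390 and 932776, and levels were used as deposited. A further row held no gene ID and was left out.

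With 1 mean per time, the limma fit foreseen for replicate values had nothing to work on, and differences come without p-values. Differences are of log2(level + 1), which understates low genes. Steps were tested on simulated data (Python 3.11.15, pandas 2.3.3). None of the assembled IDs matched the RefSeq gene table, so no coordinates or sequences are given. Lists came from words in the hit names. Named genes are the 5 members, for each list the 2 genes of largest difference and the most abundant one (mean level of at least 10), and the 5 nearest genes by pattern; further ones are marked. The members and lists were chosen with earlier results of these data known.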

Additional observations from a re-analysis of the deposited data

How the results depend on the processing

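The alternatives were a pseudocount of 0.1, scaling to equal column sums, median-of-ratios scaling, a level of at least 10, no level filter, and summed pieces of a component. Column-sum scaling moved the median of all genes by -0.13 at 12 h and -0.11 at 24 h. No member's difference that passed 2-fold changed its sign or its side of the 2-fold line under the pseudocount or either scaling. TR18674|c2_g1 at 12 h passed the line with a pseudocount of 0.1 (1.09), and TR65835|c2_g2 from 24 to 48 h was 0.0453 in place of -0.08 with median-of-ratios scaling. With pieces summed, the members counted as lower were 0 at 24 h and 0 at 48 h against 0 h, and 1 from 12 to 24 h, by construction of the sum. Of the 13920 genes that reach a level of 10, as every member does, 2523 were higher and 2811 lower at 12 h, 2434 and 2404 at 24 h, and 2180 and 2861 at 48 h against 0 h, in place of 4413 and 5214, 3932 and 4966, and 3587 and 5774. As shares these were 18.1% and 20.2%, 17.5% and 17.3%, and 15.7% and 20.6%. Of the 29399 genes the shares were 15% and 17.7%, 13.4% and 16.9%, and 12.2% and 19.6%. With a pseudocount of 0.1, 4704 were higher and 5226 lower from 12 to 24 h in place of 3103 and 3271, and 1648 and 3113 from 24 to 48 h in place of 694 and 1324. With a level of at least 10 these steps had 1977 and 1662, and 273 and 744, which is 14.2% and 11.9%, and 1.96% and 5.34%. Over the 29399 genes the shares were 10.6% and 11.1%, and 2.36% and 4.5%. Of the list counts in the text, genes lower at 12 h moved from 2 to 4 in the precursor supply and from 3 to 5 among users of FPP with a pseudocount of 0.1, and from 6 to 2 among users of GGPP with a level of at least 10. With that filter the other prenyl diphosphate synthases had 3 lower at 24 h, and 4 higher and 4 lower at 48 h. Lower counts at 24 and 48 h with it were 0 and 1 in the precursor supply, 1 and 1 among users of GGPP, and 1 and 2 among users of FPP. With a pseudocount of 0.1 the precursor supply had 3 lower at 24 h. List medians under the alternatives ran at 12, 24 and 48 h from 0.89 to 1.62, 0.77 to 1.13 and 0.76 to 1.12 in the precursor supply. They ran from -1.01 to -0.58, -0.44 to -0.28 and -0.44 to -0.31 in the other prenyl diphosphate synthases. Among users of GGPP they ran from -0.08 to 0.28, -0.06 to 0.19 and 0.09 to 0.54, and among users of FPP from 0.01 to 0.17, 1.04 to 1.60 and 0.91 to 1.64. Of the 5 nearest genes, 5 were shared with a measure centred on the 4 times for TR18674|c2_g3, 3 for TR65835|c2_g2 and 2 for TR40024|c0_g1. No paired analysis was possible because the table holds no replicate values, and for the same reason no replicate could be left out. The depth is unknown, so levels near 0, such as those of TR40024|c0_g1 and TR65835|c2_g1 at 0 h, carry an unknown counting error.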
